A study of Caenorhabditis elegans with 2 samples.

Results

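The genes of the SUMO pathway were examined for association with GEI-17, a SUMO ligase, in the nematode Caenorhabditis elegans. The 9 genes were chosen by name: smo-1 encodes the worm's SUMO, aos-1 and uba-2 the heterodimeric activating enzyme, ubc-9 the conjugating enzyme, gei-17 the ligase of the PIAS family, and ulp-1, ulp-2, ulp-4 and ulp-5 proteases of the ULP family. They were 9 of 19973 nuclear protein-coding genes. Whole young adults of strain OP572, aged 64 h and of both sexes, were profiled by ChIP-seq, in which chromatin bound by the tagged protein is pulled down through its GFP and sequenced. The strain lacks a functional copy of unc-119 at its own locus (unc-119(tm4063)) and carries the integrated array wgIs572, which supplies GEI-17 tagged at its C terminus with TY1, EGFP and 3xFLAG together with a working unc-119. The samples were 2 biological replicates of this 1 group, called 4 and 5 in the labels. There was no second condition, so no comparison between conditions was made. Worms without the tag were not analysed here, so regions that would be pulled down without GEI-17 cannot be told apart in any value below. Neither the extent nor the copy number of the gei-17 sequence on the array is given in the sources used here.

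SUMO is a small protein that is joined to lysines of other proteins, many of them nuclear. It is matured by a protease, activated by the AOS1/UBA2 dimer, passed to UBC9 and transferred to a target with the help of a ligase. Proteases of the same family remove it again, so the modification is reversible. In worms the pathway is known for roles in the germline, in meiotic and mitotic chromosomes and in the repression of genes, and GEI-17 itself is known from work on DNA damage tolerance and chromosome congression.

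Region lists, 4 in all and in ce11 coordinates, were analysed: 30000 candidate summits for the pooled replicates, 30000 for each replicate alone, and the 1030 pooled summits kept by the filter on irreproducible discovery rate (IDR). By their labels the candidate lists mix peaks with background, so a candidate alone is no call of binding. Each summit comes with the signal that the authors deposited, a value with no stated scale. It is ranked here within its own list, with rank 1 the highest, and never compared in size between lists. Passing IDR meant, in these lists, being among the highest pooled signals. The lowest that passed stood at 110.45 and the next candidate at 110.41. Each gene was given a window from 2 kb upstream of its annotated start to 1 kb past its end. The read depth behind each region is unknown.

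No SUMO pathway gene held a summit that passed IDR. The count was 0 of 9 genes, beside 1305 of all 19973 genes (6.53%) with the same window. An exact 95% interval for 0 of 9 reaches 33.6%. It treats the genes as random draws, which genes chosen by name are not, so it shows only how few they are. In the promoter window alone, which ran from 1000 bp before the start to 200 bp after it, the count was again 0 of 9, beside 2.99% of all genes. The highest pooled candidate at any of the 9 genes had a signal of 74.4 and rank 2497. There were thus 2496 pooled summits ahead of it, of which 1466 had not passed IDR either. In the lists of the single replicates the highest ranks at these genes were 1529 in replicate 4 and 2040 in replicate 5, so no member entered the 1030 highest of either replicate. The genes nevertheless lay among candidates of lower rank: 8 of the 9 held at least 1 pooled candidate, beside 56.9% of all genes. The same number held a candidate of replicate 4 (67.8% of all genes) and of replicate 5 (57.1%). All 8 held a pooled candidate whose interval was overlapped by a candidate of each replicate, beside 41.8% of all genes. Their windows were longer than the usual gene's, at a median of 7.14 kb for the 9 genes and 5.03 kb for all genes, which leaves more room for candidates. In the promoter window 6 of the 9 held a pooled candidate, beside 30.9% of all genes. Counted per length, the median was 0.345 pooled candidates per kb for the 9 genes and 0.201 for all genes.

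**Figure D1:**
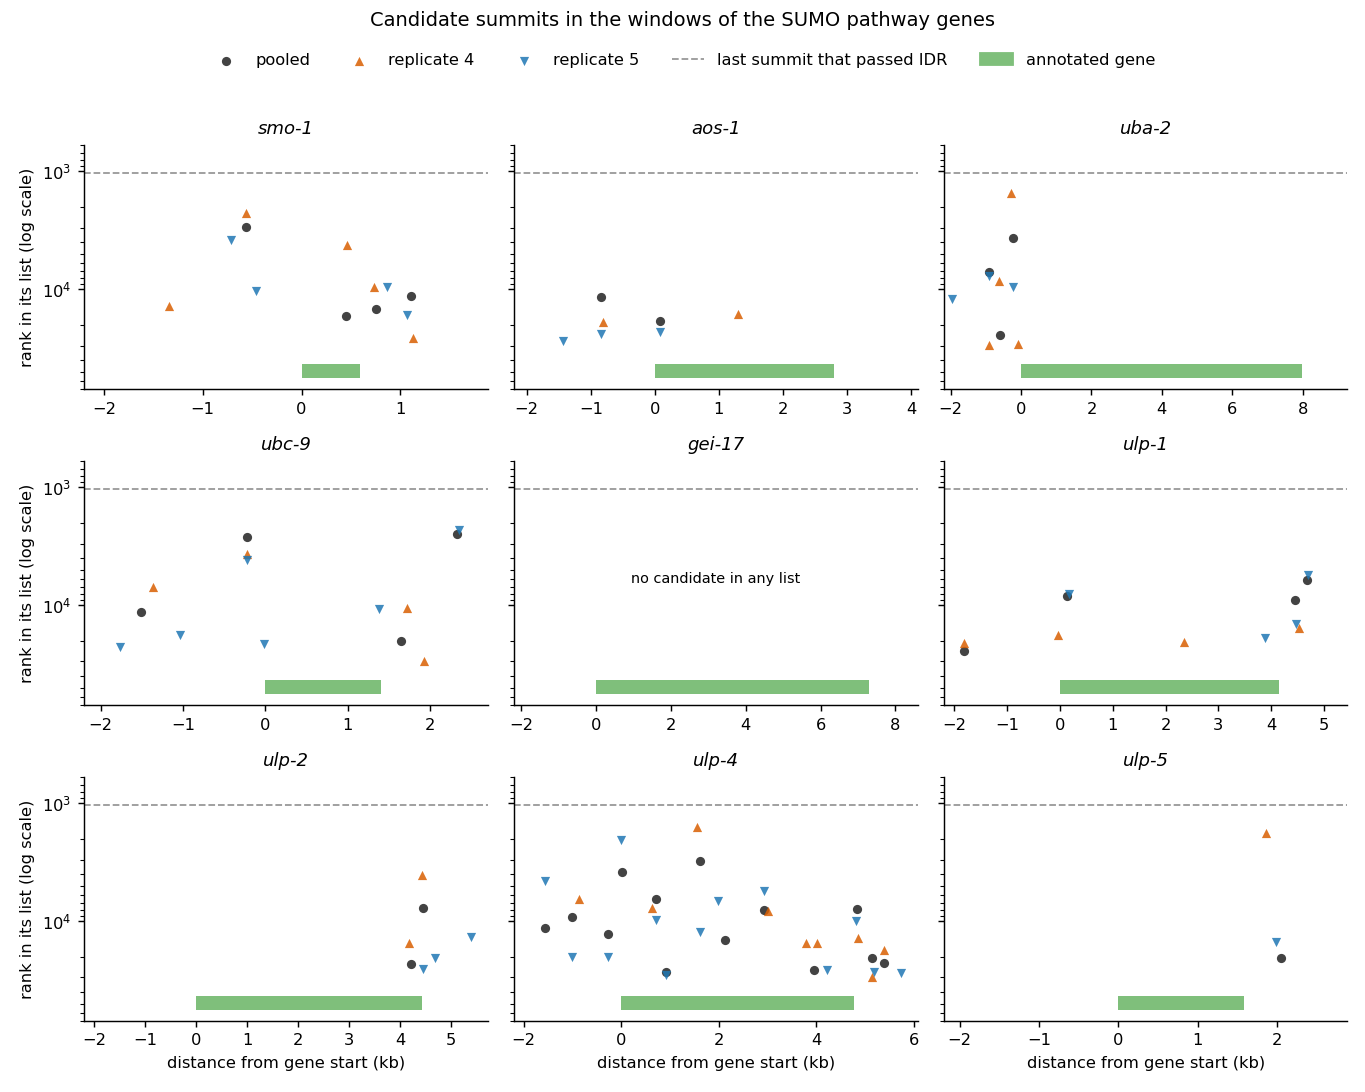
Each panel shows the window of 1 gene, with the distance from its annotated start in kb on the x axis and the rank of each candidate summit within its list on a logarithmic y axis, the highest rank at the top; circles are pooled candidates, upward triangles replicate 4, downward triangles replicate 5, and the dashed line is rank 1030. No point reaches the dashed line; gei-17 has no point and ulp-4 has 13 pooled ones.

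The gene for SUMO itself, smo-1, is short (I:1340678-1341265, plus strand, 588 bp) and had 4 pooled candidates in a window of 3.59 kb. The highest lay 559 bp upstream of its start, in sequence between genes, with a pooled signal of 68.5 and rank 2985. In replicate 4 a summit stood 3 bp away, with a signal of 40.3 and rank 2273. In replicate 5 the nearest summit was 94 bp away, with a signal of 26.8 and rank 10273, and a higher candidate at rank 3842 had its summit 712 bp upstream of the start. The region upstream of smo-1 was therefore present in both replicates, at a summit that differed between them. The other 3 candidates lay over the 3' end of smo-1 and over K12C11.1, the next gene, which is read towards smo-1, at ranks between 11307 and 16719. At 1.11 candidates per kb the window was denser than those of most genes: 4.54% of all genes had as many per kb or more.

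The subunits of the activating enzyme differed in where their candidates lay. At aos-1 (V:10127492-10130295, minus strand) there were 2 pooled candidates, at ranks 11623 and 18511. The higher, with a signal of 38.8, lay 834 bp upstream of aos-1 inside a coding exon of wdr-20, and the lower lay in a coding exon of aos-1 at 87 bp from its start. The lower one was overlapped by replicate 5 but not by replicate 4. No aos-1 candidate ranked above 16224 in replicate 4 or above 23154 in replicate 5. Its highest rank in replicate 5 was below that of every other member with a candidate there.

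At uba-2 (I:12741588-12749562, plus strand), the partner of aos-1, all 3 pooled candidates lay upstream of the start and none over the 7975 bp of the gene. The highest, at −239 bp, had a pooled signal of 63.0 and rank 3700. It had a signal of 46.8 and rank 1529 in replicate 4, the highest rank of any member in that list, and a signal of 27.8 and rank 9541 in replicate 5. The 2 replicates thus placed the same region far apart in rank. Its summit was 74 bp upstream of the start of vps-25, an ESCRT-II subunit gene read in the other direction, so the position does not assign it to either gene. The candidates at −921 bp (rank 7171) and −608 bp (rank 24421) lay inside both vps-25 and toe-4. They too were nearest to the vps-25 start.

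At the conjugating enzyme gene ubc-9 (IV:4651044-4652447, plus strand) lay the highest pooled candidate of all members. This region (IV:4653151-4653594) had a signal of 74.4 and rank 2497, but its summit was 926 bp past the end of ubc-9, in the first part of psr-1, 111 bp from that gene's start. It had a summit of rank 3661 at 89 bp in replicate 4 and of rank 2318 at 19 bp in replicate 5. psr-1 encodes a receptor known from the engulfment of dying cells. The second highest candidate (IV:4650599-4651042, signal 72.5, rank 2631) lay between genes, 223 bp upstream of the ubc-9 start. The lists placed this summit within 1 bp of each other, closer than at any other member candidate. It had a signal of 34.0 and rank 3657 in replicate 4 and a signal of 39.4 and rank 4125 in replicate 5. The other 2 candidates, over F29B9.8 and F29B9.5, had ranks of 11468 and 20064.

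The sequences at these 2 summits are given because they are the highest at any member. They are read from the RefSeq assembly WBcel235 (ce11 coordinates), on the strand of ubc-9, up to 100 bp each side of the summit. Each stretch stops where untranslated exon sequence begins, and everything beyond is left out. Capitals mark annotated coding bases, of which neither printed stretch holds any. The upstream region is chrIV:4650721-4650921, with its summit at base 101, and was added after its values had been seen. The psr-1 region is chrIV:4653332-4653384, an intronic stretch with its summit at base 42. It was cut on both sides, so its lack of coding bases does not describe the wider region. The replicate 5 summit, at IV:4653392 in a coding exon of psr-1, lies outside the printed stretch.

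ubc-9 upstream: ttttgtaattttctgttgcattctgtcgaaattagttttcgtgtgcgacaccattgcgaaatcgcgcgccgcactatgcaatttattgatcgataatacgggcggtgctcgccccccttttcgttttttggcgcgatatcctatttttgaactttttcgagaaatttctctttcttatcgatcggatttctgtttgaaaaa
psr-1 intron: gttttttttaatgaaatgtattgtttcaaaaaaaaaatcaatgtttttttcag

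The proteases ranged from the most to the least populated windows of the pathway by number of candidates, the ligase gene apart. ulp-4 (II:8129960-8134742, plus strand) encodes a SUMO protease known in worms from the regulation of the mevalonate pathway. It held 13 of the 33 pooled candidates in the member windows (39.4%), or 1.67 per kb, a density that 0.220% of all genes matched or passed. The highest (II:8131345-8131788) lay in an intron 1607 bp downstream of the start. It had a pooled signal of 67.7 and rank 3073, a signal of 46.3 and rank 1583 in replicate 4, and a signal of 24.5 and rank 12334 in replicate 5. The next (II:8129747-8130190) lay on the start itself, at 9 bp, with a pooled signal of 61.9 and rank 3863. It had a signal of 52.0 and rank 2040 in replicate 5 and no overlapping candidate in replicate 4. The replicates therefore put the leading candidate of ulp-4 at different places, in the intron in replicate 4 and at the start in replicate 5. Of the 13 candidates, all were overlapped by replicate 5 and 9 by replicate 4. The gene also hosts snoRNA genes: the summit at 921 bp lay inside C41C4.16 at rank 26822, and the one at 2921 bp lay 54 bp from C41C4.17 at rank 8026.

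ulp-1 (III:5165659-5169799, minus strand), the homologue of the yeast SUMO protease Ulp1, had 4 pooled candidates. The highest (III:5164900-5165343) had a pooled signal of 51.6 and rank 6066 and lay 537 bp past the end of ulp-1, in a coding exon of T10F2.2, 189 bp from that gene's start. The overlapping candidate of replicate 4 had a signal of 19.4 and rank 15665, with its summit 149 bp away. It lay nearer, at 74 bp, to the neighbouring pooled candidate of rank 8960. In replicate 5 the summit was 20 bp away, with a signal of 35.2 and rank 5488. A further candidate lay in an intron of ulp-1, 127 bp from its start, at rank 8344 of the pooled candidates, 17815 of replicate 4 and 8100 of replicate 5. The lowest, at rank 24252, was in a coding exon of prp-19, a splicing factor gene. It was absent from replicate 5.

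The sequences at the highest summits of ulp-4 and ulp-1 are shown because, after that of ubc-9, these are the highest members off the chromosome of smo-1 whose top candidate was overlapped by both replicates. They are chrII:8131467-8131667, on the plus strand, and chrIII:5165022-5165222, on the minus strand, each with its summit at base 101. Capitals mark annotated coding bases, which are 166 of the 201 bases at ulp-1, from T10F2.2, and none at ulp-4. The ulp-4 stretch has a GC content of 55.7%, a level that 3.09% of nuclear pooled candidates reach, and the ulp-1 stretch one of 36.3%. The upstream ubc-9 stretch stood at 40.3%. The median was 38.3% over the 33 member candidates and 40.8% over all 29980 nuclear pooled ones.

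ulp-4 intron: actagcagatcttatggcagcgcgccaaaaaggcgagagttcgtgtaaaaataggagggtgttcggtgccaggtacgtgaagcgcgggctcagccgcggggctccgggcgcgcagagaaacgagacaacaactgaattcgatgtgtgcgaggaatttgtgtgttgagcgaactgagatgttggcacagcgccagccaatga
ulp-1 downstream: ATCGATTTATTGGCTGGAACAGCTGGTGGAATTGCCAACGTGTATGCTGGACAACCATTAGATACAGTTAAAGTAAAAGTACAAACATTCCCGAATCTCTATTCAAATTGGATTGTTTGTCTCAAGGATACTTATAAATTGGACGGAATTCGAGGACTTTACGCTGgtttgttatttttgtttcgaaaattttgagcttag

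The motifs sought were read on either strand in 201 bp centred on each summit. They were the GAGA repeat GAGAGAGA, the heat shock element TTCTAGAA and the E-box CACGTG. None was found in the printed sequences. Among the 33 member candidates GAGAGAGA was found at 1, the one of ulp-1 in prp-19 (3.03%, beside 3.52% of all nuclear pooled candidates). CACGTG was found at 1, the one of uba-2 at −921 bp (3.03% beside 5.59%). TTCTAGAA was found at none, beside 1.00% of all candidates.

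The remaining proteases had few candidates, and those near ends shared with neighbours. ulp-2 (II:4955450-4959876, minus strand) had 2. The higher had its summit 4 bp inside pbs-3, which encodes a proteasome subunit and starts just past the end of ulp-2. It had a pooled signal of 46.6 and rank 7782, a signal of 32.9 and rank 4042 in replicate 4 and a signal of 14.9 and rank 25557 in replicate 5. The other lay in the 3' UTR of ulp-2 at rank 22904. No pooled candidate lay within 2 kb upstream of ulp-2.

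ulp-5 (I:6812660-6814249, plus strand) had a single pooled candidate, the lowest of any member's highest, with a signal of 27.7 and rank 20714. It lay 467 bp past the end, in a coding exon of teg-4, which encodes a splicing factor. In replicate 4 the overlapping candidate had a signal of 44.3 and rank 1780, the third highest among the members there. In replicate 5 it had a signal of 22.1 and rank 14932. The summits were 195 bp from the pooled one in replicate 4 and 71 bp in replicate 5. A high rank in 1 replicate was thus not matched in the other or in the pooled list.

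**Figure D2:**
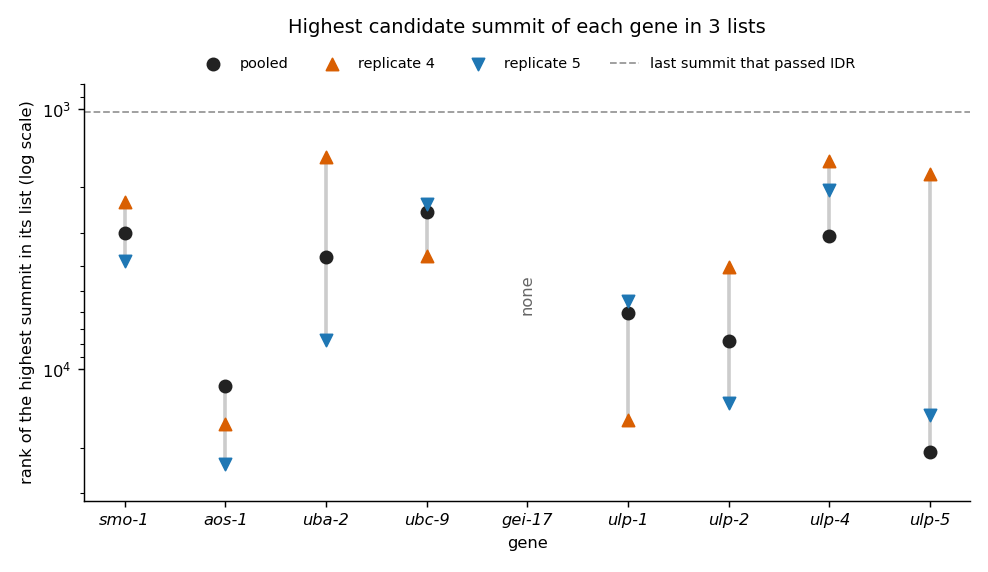
For each gene on the x axis, the points give the rank of its highest candidate within its list, for pooled candidates, replicate 4 and replicate 5, on a logarithmic y axis with the highest rank at the top; the grey line joins the 3 values and the dashed line is rank 1030. The 3 values of ubc-9 span 2318 to 3657, and those of ulp-5 span 1780 to 20714. The highest candidate of a gene can be a different region in each list, as it is between the replicates for uba-2, aos-1, ubc-9, ulp-2 and ulp-4.

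At the ligase gene gei-17 (I:9100843-9108140, minus strand) there was no candidate at all, in the pooled list or in either replicate, over a window of 10.3 kb. Of the 1770 genes with a window at least as long, 297 (16.8%) had no pooled candidate and 122 (6.89%) had none in any of the 3 lists. The empty stretch was wider than the gene. It ran for 32.1 kb between pooled summits, for 32.3 kb in replicate 4 and for 31.9 kb in replicate 5. The median spacing between neighbouring summits was 1.20 kb, 1.53 kb and 1.17 kb in the same order. Among the 29974 spacings between pooled summits 468 were longer, against 238 in replicate 4 and 478 in replicate 5.

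Regions that passed IDR lay beside both edges of this stretch. On the side past the end of gei-17, in an intron of mef-2, a transcription factor gene, a pooled summit passed IDR (I:9096482-9096925, signal 128, rank 765), 4.14 kb from the end of gei-17. A lower summit beside it, at rank 3610, was the last before the stretch. On the upstream side the nearest pooled summit, 20.8 kb from the gei-17 start and close to clec-91, also passed IDR (signal 163, rank 501). Within 60 kb of the gei-17 start on either side there were 51 pooled candidates, or 0.425 per kb, and 6 of them passed IDR. Besides gei-17 the stretch held nduf-7, which encodes a complex I subunit, gld-4, which encodes a poly(A) polymerase, ZK858.2, ZK858.8 and clec-91. The array of this strain carries gei-17 sequence of its own, and reads from the array and from the native locus cannot be told apart in these lists. Whether a control library or a filter on regions removed candidates over this stretch was not tested, so the empty window is not a measurement that GEI-17 was absent from gei-17. Leaving gei-17 aside, the count of members with a summit that passed IDR was 0 of 8.

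The gene unc-119 (III:10902641-10908935), of which the array supplies a working copy, also lacked pooled candidates. Its window of 9.29 kb held no pooled candidate, 3 of replicate 4 and 0 of replicate 5. The 3 had ranks between 9032 and 28166. Of the 2236 genes with a window at least as long, 18.2% had no pooled candidate. The spacing around unc-119 was 52.4 kb in the pooled list and 55.5 kb in replicate 5. Longer spacings numbered 141 of 29974 in the pooled list and 134 of 29971 in replicate 5.

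**Figure D3:**
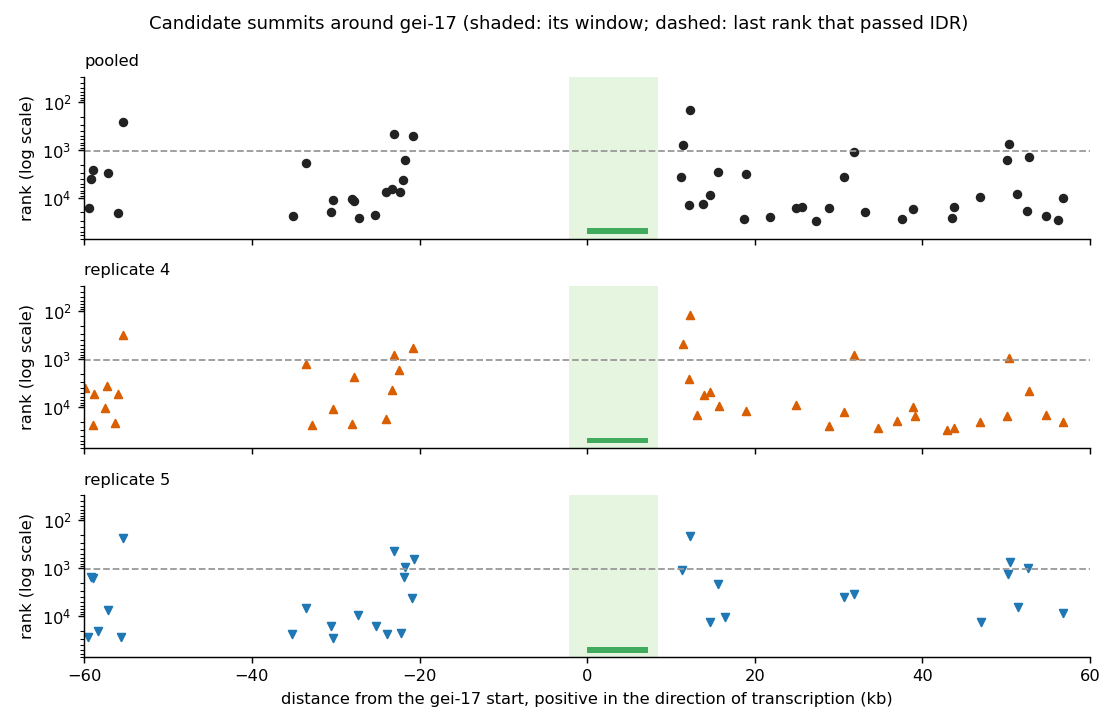
Candidate summits within 60 kb of the gei-17 start are plotted by distance in kb, positive in the direction of transcription, against rank on a logarithmic y axis with the highest at the top, in 3 panels (pooled above, then replicate 4, then replicate 5); the shaded band is the gei-17 window, the bar the gene and the dashed line rank 1030. The panels are empty over 32.1, 32.3 and 31.9 kb, with summits above the dashed line beside both edges in the pooled list.

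Set in order of their highest pooled signal, the members were ubc-9 (74.4), smo-1 (68.5), ulp-4 (67.7), uba-2 (63.0), ulp-1 (51.6), ulp-2 (46.6), aos-1 (38.8) and ulp-5 (27.7), with gei-17 at none. The highest, ubc-9, reached 67.3% of the lowest signal that passed IDR, and ulp-5 reached 25.1%. No spread can be put on a pooled signal. By rank, smo-1 and ubc-9 changed order between the replicates: smo-1 stood above ubc-9 in replicate 4 (2273 against 3657) and below it in replicate 5 (3842 against 2318), so the replicates did not separate them. The highest candidate of the protease gene ulp-4 ranked above both in replicate 4 (1583) and in replicate 5 (2040), although its pooled signal was the lowest of the 3. These 2 ranks belong to different regions of ulp-4. The intron region of rank 1583 had rank 12334 in replicate 5, and the start region of rank 2040 had no overlapping candidate in replicate 4. For ubc-9 too the regions differed, upstream of its start in replicate 4 and in psr-1 in replicate 5. The ranks of uba-2, ulp-1 and ulp-2 spanned overlapping ranges, of 1529 to 7752, 5488 to 15665 and 4042 to 13523. At uba-2 and ulp-2 the ends of the range belong to different regions. The uba-2 region of rank 1529 in replicate 4 had rank 9541 in replicate 5. The ulp-2 region of rank 4042 in replicate 4 had rank 25557 in replicate 5. Among all genes, 13.9% had a pooled summit at least as high as that of ubc-9, 15.9% as that of smo-1, 38.5% as that of aos-1 and 50.2% as that of ulp-5. The median of the highest signal was 51.6 over the 9 members and 28.0 over all genes, with genes without a candidate counted as 0.

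**Figure D4:**
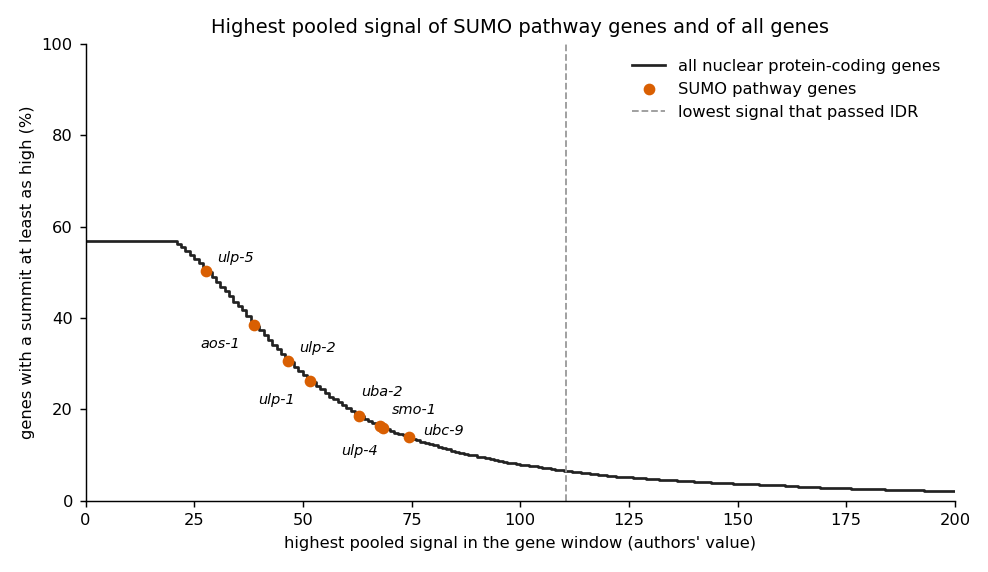
The black line gives the share of the 19973 nuclear protein-coding genes, in percent on the y axis, whose highest pooled signal is at least the value on the x axis; points mark the 8 SUMO pathway genes with a pooled candidate and the dashed line the lowest signal that passed IDR. The points run from 27.7 for ulp-5 to 74.4 for ubc-9 and all lie left of the dashed line at 110.45.

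Of the 33 pooled candidates in the member windows, 11 were upstream of the gene, 11 within it and 11 past its end. For 17 the nearest protein-coding start was that of the member, and for 16 that of another gene. The highest candidate was nearest to the member's own start at smo-1, aos-1 and ulp-4, 3 of the 8 genes that had one. At uba-2, ubc-9, ulp-1, ulp-2 and ulp-5 it was nearest to vps-25, psr-1, T10F2.2, pbs-3 and teg-4. In the 5 genes smo-1, aos-1, ubc-9, ulp-1 and ulp-4 at least 1 candidate was nearest to their own start. The same counts were not made over all genes, so whether these genes differ from others in this is unknown.

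The replicates overlapped at most member candidates but ordered them differently. Of the 33, 27 (81.8%) were overlapped by both replicates, beside 56.1% of the 29980 nuclear pooled candidates. A replicate candidate that overlapped more than 1 pooled candidate was counted for each, so the matches are not all distinct. Each of the 33 was overlapped by at least 1 replicate, while neither replicate overlapped 5.31% of all nuclear candidates. Replicate 4 overlapped 28 (72.8% of all nuclear candidates) and replicate 5 overlapped 32 (78.0% of all). Of the 27, 9 belonged to ulp-4 and 18 to the other members. When summits had to lie within 100 bp in both replicates, 14 of the 33 remained, beside 26.2% of all. Over the 27 candidates the Spearman correlation of the ranks in the replicates was 0.22, and over the 16827 nuclear candidates overlapped by both it was 0.36. This is a description across regions that share libraries and, in part, windows, overlapping intervals and the paired replicate candidates. The median distance from the pooled summit was 46.0 bp in replicate 4 and 20.0 bp in replicate 5. In the windows, 3 of 31 candidates of replicate 4 and 3 of 37 of replicate 5 had no pooled counterpart. The deposited −log10 q value was at its ceiling at none of the pooled or replicate 4 candidates and at 1 of replicate 5, the ulp-4 start (3.63, reached by 2110 summits of that list).

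The nearest summit that passed IDR lay at a median of 17.2 kb from the start of the 9 members, and of 46.2 kb for all genes. It was nearest at uba-2, 4.81 kb upstream (I:12736553-12736996, signal 165, rank 487) within vps-25, and next at ubc-9, 9.48 kb away, upstream of F29B9.11 (signal 146). It was farthest at smo-1, 104 kb away, and at aos-1, 90.3 kb. Of all genes, 9.24% had one at least as near as uba-2 and 75.9% at least as near as smo-1. ubc-9, the first by pooled signal, was thus the second nearest to a region that passed IDR, and smo-1, the second by signal, the farthest.

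Genes around the pathway were counted with the same window. Of 17 listed reported SUMO targets and partners, 16 were found in the annotation, and 3 of these (18.8%) held a summit that passed IDR, beside 6.53% of all genes. They were hmgs-1, which encodes HMG-CoA synthase and is a known ULP-4 substrate (signal 127, 170 bp upstream), top-2, which encodes topoisomerase II (172, 258 bp upstream), and mep-1, which encodes a zinc finger protein (131, 1933 bp upstream). In all 3 the summit was nearer to the start of another gene, F25B4.4, npp-3 and gfl-1. Of 17 genes of other ubiquitin-like conjugation systems, 3 (17.6%) held one: lgg-1 (2 summits, the higher at 258 and nearer to the start of C32D5.8) and lgg-2 (198), which encode the Atg8 family of autophagy, and atg-7 (113), which encodes their activating enzyme. The median window was 7.70 kb for the targets and partners and 4.99 kb for the ubiquitin-like list, beside 5.03 kb for all genes. The nearest summit that passed IDR lay at a median of 67.3 kb and 29.0 kb in the same order, beside 46.2 kb for all genes. The lists were not tested against each other.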

How the data were processed

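Whole-worm GEI-17 ChIP-seq of 2 biological replicates was read from 4 region lists. Per the listings deposited beside the samples, candidates were called on each replicate and on the pooled alignments, each with a control alignment, and the IDR list was derived from them. Which caller and which IDR threshold they used is not given in the sources used here. For each summit the authors deposited a signal, with no stated scale, and the −log10 of a q value. Ranks were computed within each list. All candidate lists stop at 30000 summits. Read depth is unknown.

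Genes came from Ensembl release 115 (WBcel235), and sequence from the RefSeq assembly of that build; chromosome lengths held all list positions. Positions are 1-based, and summits are the interval start plus the deposited offset. Distances in bp run along the gene's strand. Overlap meant at least 1 bp of the intervals, and the overlapping candidate with the nearest summit was paired. No test was run: there was 1 group, and counts are set beside the same counts over all genes. The share of genes or candidates is a description, and no reads back the interval given for 0 of 9.

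The members and gene lists were chosen with earlier results of these data known. All 9 members are named, with unc-119, the genes at or next to their summits, and genes of 2 further lists that held a summit passing IDR. Sequences were those at the highest summit of the 3 highest members off chromosome I overlapped by both replicates, plus the upstream ubc-9 summit. Other windows, thresholds, overlap criteria and single replicates were tried. The counting was tested on simulated regions. The computing ran in Python 3.11.15 (pandas 2.3.3, numpy 2.4.6, scipy 1.17.1; figures by matplotlib 3.10.9).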

Additional observations from a re-analysis of the deposited data

How the results depend on the processing

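The count of 0 of 9 members with a summit that passed IDR was also 0 in the promoter window, over the gene body only, with the 2000 or the 500 highest pooled summits, and with the 1030 highest of either replicate alone (0 to 0). The shares of all genes were 2.99%, 1.41%, 11.6% and 3.17% in the same order, then 6.61% for replicate 4 and 6.11% for replicate 5. With 5 kb on each side it was 2, uba-2 and gei-17, beside 11.7% of all genes. Members with a pooled candidate were 8 in the main window (56.9% of all genes) and 5 over the gene body only (38.9%). With single replicates they were 8 to 8, beside 57.1% of all genes for replicate 5 and 67.8% for replicate 4. Members with a candidate overlapped by both replicates were 8, 5 in the promoter window and 4 over the gene body only (8 to 8 with single replicates). Overlapped summits were 27 (56.1% of all nuclear candidates) and 14 when summits had to lie within 100 bp (26.2%). They were 20 when at least 50% of both intervals had to overlap (41.2%). With single replicates they were 28 for replicate 4 (72.8%) and 32 for replicate 5 (78.0%).

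Over the gene body only, the highest pooled ranks became 16719 for smo-1, 18511 for aos-1, 22904 for ulp-2 and 8344 for ulp-1. There ulp-4 kept rank 3073, and uba-2, ubc-9 and ulp-5 had no pooled candidate. In the promoter window the ranks became 3863 for ulp-4, 8344 for ulp-1 and 2631 for ubc-9, and ulp-2 and ulp-5 had no pooled candidate. With replicate 5 or replicate 4 alone, the ranks spanned 2273 to 3842 for smo-1, 1529 to 7752 for uba-2, 16224 to 23154 for aos-1, 2318 to 3657 for ubc-9, 5488 to 15665 for ulp-1, 4042 to 13523 for ulp-2, 1583 to 2040 for ulp-4 and 1780 to 14932 for ulp-5. Each is the rank of the highest candidate in a list. At uba-2, aos-1, ubc-9, ulp-2 and ulp-4 that candidate was a different region in each replicate, so a narrow range there is not agreement on a region. The cause of these moves was not tested. Depth is unknown, so the precision of a rank is unknown too, and 2 replicates give its range only.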
